A study of Homo sapiens with 12 samples.

Results

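The 8 genes described here encode TXNIP, the α-arrestins ARRDC1, ARRDC2, ARRDC3 and ARRDC4, and the transcription factors MLX, MLXIP (MondoA) and MLXIPL (ChREBP). They were taken by gene symbol from the 20323 genes of the count table, in which each symbol stood at 1 identifier, and all 8 were among the 12718 genes with enough counts to be tested. RNA was sequenced in 12 libraries, 4 groups of 3, from the established cell line A549, derived from a human lung adenocarcinoma. The groups were LKB1-deficient cells pretreated with high-dose AA, LKB1-deficient cells pretreated with PBS, LKB1-intact cells with AA and LKB1-intact cells with PBS. AA is named VitC in the sample titles, PBS is phosphate-buffered saline, and the genotype label of the intact cells is WT. The deficient cells are named con in the sample titles. No source used here gives the dose or duration of AA, the way in which either kind of cell was made, or whether a line is 1 clone. The label WT therefore does not say which kind of cell is the unmodified line. Replicates are not said to be separate cultures, so a p-value here reflects how these libraries vary, and that variation may be technical.

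TXNIP binds reduced thioredoxin and blocks it, and it promotes the internalisation of glucose transporters. It belongs with ARRDC1 to ARRDC4 to the α-arrestins, adaptors that recruit NEDD4-family ubiquitin ligases to membrane proteins through PPxY motifs. MondoA and ChREBP are glucose-sensing factors that bind DNA as dimers with MLX. TXNIP and ARRDC4 are known direct targets of MondoA, whose binding sites, carbohydrate response elements, consist of a pair of E-box-like hexamers. LKB1, encoded by STK11, activates AMPK, and AMPK is known to phosphorylate TXNIP and promote its degradation in hepatocytes.

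Library totals lay between 16055534 and 20306129 estimated counts. STK11, the gene behind the genotype label, was lower in deficient than in intact cells, by a log2 change of -1.98 ± 0.10 (SE) under AA and -2.08 ± 0.11 under PBS (adjusted p = 5.29e-13 and 1.48e-10, edgeR quasi-likelihood test with Benjamini-Hochberg adjustment). Of the epithelial markers, KRT7 reached at least 342, KRT8 434 and KRT18 484 FPKM in every library, whereas CDH1 lay between 0.196 and 0.499 FPKM. EPCAM lay between 4.07 and 7.48 FPKM. The summed level of all 7 epithelial markers was 1650 to 1707 FPKM in deficient cells with AA and 1510 to 1659 FPKM with PBS. In intact cells that sum was 2404 to 2480 FPKM with AA and 1691 to 1747 FPKM with PBS. AKR1B10 and ALDH1A1, widely described as abundant in A549, were low: AKR1B10 lay between 0.259 and 1.48 FPKM, and ALDH1A1 was at 0 in 8 of 12 libraries. The name A549 is therefore that of the labels, and the identity of the line was not tested. The summed level of 9 markers of leukocytes, endothelium and fibroblasts was 3.46 to 5.95 FPKM in deficient cells with AA, 5.89 to 7.22 in deficient cells with PBS, 6.41 to 7.19 in intact cells with AA and 7.26 to 8.70 in intact cells with PBS. Of these markers CD3E and COL1A2 were at 0 in all 12 libraries. COL1A1 lay between 2.839 and 5.355 FPKM, CDH5 between 0.216 and 2.933 FPKM and PDGFRB between 0.032 and 1.399 FPKM, above 0 in every library.

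The upstream sequences of 3 genes are shown because they hold a pair of E-box-like hexamers (TXNIP) or a single E-box (ARRDC4 and MLX). Windows of 250 bases before each RefSeq start (GRCh38.p14) were searched on both strands for the E-box CACGTG and for the tandem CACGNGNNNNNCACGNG, in which each hexamer can also be an E-box. The sequences are printed 5′ to 3′ on the gene's strand, up to the most upstream annotated start, with the motif in capitals. For MLX only the last 60 bases of that stretch are printed. They lie at chr1:145996601-145996829 (minus strand) for TXNIP, chr15:97960453-97960697 (plus strand) for ARRDC4 and chr17:42567008-42567067 (plus strand) for MLX.
TXNIP: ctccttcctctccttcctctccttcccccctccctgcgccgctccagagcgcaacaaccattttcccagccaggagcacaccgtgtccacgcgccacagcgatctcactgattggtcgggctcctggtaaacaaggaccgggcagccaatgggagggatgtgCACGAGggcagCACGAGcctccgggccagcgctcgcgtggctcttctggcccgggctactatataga
ARRDC4: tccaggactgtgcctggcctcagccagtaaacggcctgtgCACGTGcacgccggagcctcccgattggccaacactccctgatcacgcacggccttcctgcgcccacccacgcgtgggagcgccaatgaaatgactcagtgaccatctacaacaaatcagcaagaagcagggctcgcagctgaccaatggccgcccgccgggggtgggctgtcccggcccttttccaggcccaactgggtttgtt
MLX: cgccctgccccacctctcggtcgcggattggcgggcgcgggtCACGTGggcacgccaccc

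The TXNIP window shown held the tandem, beginning 88 bases before its RefSeq start, and no CACGTG. A second TXNIP window, before another RefSeq start, held neither motif and no single CACGNG. This tandem was present in 16 of 35116 RefSeq windows of the same length (0.0456%). The ARRDC4 window held CACGTG 210 bases before the RefSeq start and the MLX window held it 50 bases before the RefSeq start. CACGTG was in 2228 of the 35116 windows (6.34%), and neither the ARRDC4 nor the MLX window held the tandem. Pairs of hexamers with other letters, spacing or orientation were not searched for, so such pairs may be present. Neither motif was in the windows of ARRDC1, ARRDC2, ARRDC3, MLXIP and MLXIPL, which says only that these letters were absent from those bases. The single hexamer CACGNG was in 26.7% of the windows, among them a window each of ARRDC2 and ARRDC3. A match is a description of the sequence, and binding was not measured.

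TXNIP rose under AA in both kinds of cell, and more in deficient cells. TXNIP (ENSG00000265972, chr1:145992435-145996600 on the minus strand of GRCh38 in GENCODE release 29) had 57.1, 62.5 and 63.6 FPKM in the 3 deficient libraries with AA, against 18.5, 16.1 and 20.8 FPKM in deficient cells with PBS. In intact cells it had 18.2, 20.01 and 20.1 FPKM with AA, against 15.8, 15.96 and 17.001 FPKM with PBS. The AA libraries lay above the PBS libraries in each kind of cell, but only the deficient AA libraries stood clear of all 9 others. In bulk libraries such a difference cannot tell more RNA per cell from more cells that contain it.

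In counts scaled by library depth (CPM), TXNIP averaged 172 ± 9.41 in deficient cells with AA and 52.6 ± 5.51 with PBS (SD, n = 3 each). The log2 change was 1.71 ± 0.06 (SE; 3.27-fold, adjusted p = 1.75e-16, edgeR), and 2.04% of all genes tested rose more. In intact cells TXNIP averaged 57.1 ± 3.13 CPM with AA and 46.8 ± 2.12 CPM with PBS, a log2 change of 0.29 ± 0.07 (1.22-fold, adjusted p = 0.000578, edgeR). The difference between these AA effects was itself tested and was 1.42 ± 0.09 (log2, deficient minus intact, adjusted p = 3.42e-11, edgeR), placing TXNIP at 140 of 12718 genes from the most positive. Under AA alone the deficient cells exceeded the intact cells 3.02-fold (log2 1.59 ± 0.06, adjusted p = 1.14e-15, edgeR). Under PBS the genotypes overlapped, with 47.1 to 58.1 CPM in deficient cells and 45.3 to 49.2 CPM in intact cells, a log2 difference of 0.17 with a 95% interval of 0.03 to 0.31 (adjusted p = 0.465, edgeR).

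**Figure D1:**
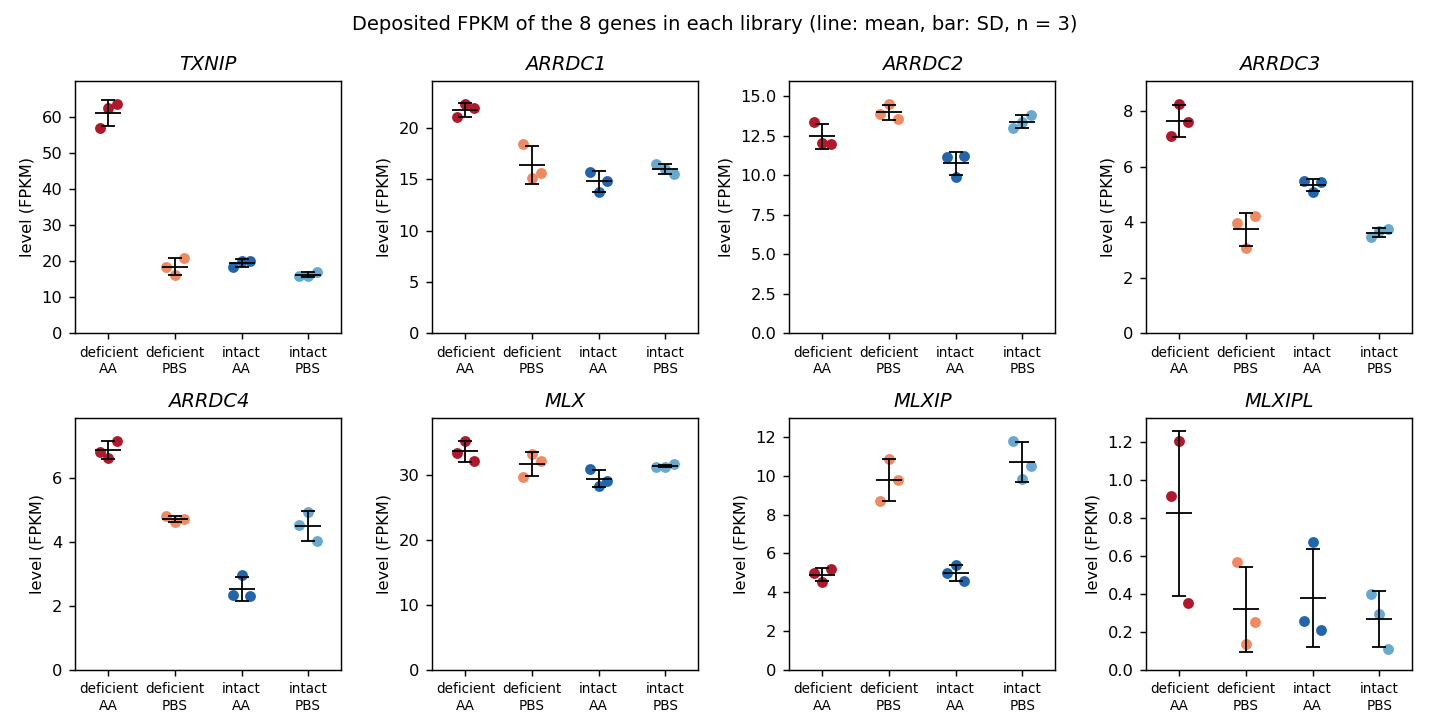
FPKM of the 8 genes in each of the 12 libraries (points), with the mean and SD of each group of 3. TXNIP in deficient cells with AA stands at 57.1 to 63.6 FPKM, above the other 3 groups.

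ARRDC4, a homologue of TXNIP that also inhibits glucose uptake, moved in opposite directions in the 2 kinds of cell. It had 6.84, 6.64 and 7.18 FPKM in deficient cells with AA, against 4.81, 4.63 and 4.72 FPKM with PBS. In intact cells it had 2.34, 2.98 and 2.31 FPKM with AA, against 4.54, 4.95 and 4.03 FPKM with PBS. AA libraries were therefore all above PBS libraries in deficient cells and all below them in intact cells.

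The log2 change of ARRDC4 under AA was 0.49 ± 0.09 (SE) in deficient cells (1.40-fold, adjusted p = 2.72e-05, edgeR) and -0.83 ± 0.10 in intact cells (adjusted p = 1.35e-07). The difference between the effects was 1.32 ± 0.13 (adjusted p = 3.69e-08, edgeR), which stood at 182 of 12718 genes. Deficient cells exceeded intact cells 2.61-fold under AA (log2 1.38 ± 0.09, adjusted p = 2.85e-11, edgeR), while under PBS the difference was 0.06, with a 95% interval of -0.12 to 0.25.

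The ratio of TXNIP to ARRDC4 was higher with AA in both kinds of cell, although ARRDC4 itself changed in opposite directions. TXNIP counts per ARRDC4 count were 5.97, 6.73 and 6.33 in deficient cells with AA, against 2.69, 2.47 and 2.99 with PBS. They were 5.57, 4.81 and 6.22 in intact cells with AA, against 2.46, 2.22 and 2.97 with PBS. The AA and PBS libraries did not overlap, whereas deficient and intact cells overlapped under AA and under PBS. These ratios are not scaled by length, were chosen after the levels had been seen, and carry no test.

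**Figure D2:**
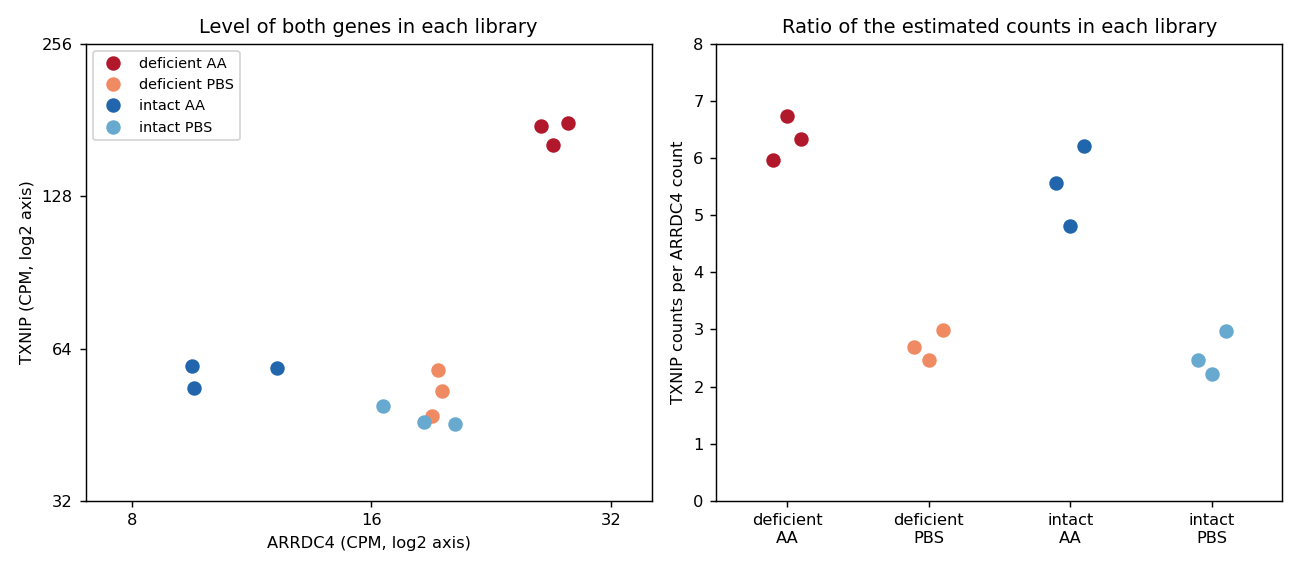
Left, TXNIP against ARRDC4 in CPM in the 12 libraries (log2 axes), and right, TXNIP counts per ARRDC4 count in each library. With AA, deficient cells sit higher on both left axes than with PBS and intact cells sit lower on the ARRDC4 axis, while the ratio is at least 4.81 with AA and at most 2.99 with PBS.

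ARRDC3, a regulator of body mass and adrenergic signalling in mice, rose under AA in both kinds of cell. It had 7.12, 8.27 and 7.61 FPKM in deficient cells with AA, against 3.96, 3.08 and 4.21 FPKM with PBS. In intact cells the 3 values were 5.48, 5.08 and 5.47 FPKM with AA, against 3.45, 3.68 and 3.74 FPKM with PBS. The AA and PBS groups were separate in each kind of cell. The log2 changes were 0.97 ± 0.09 in deficient cells (adjusted p = 2.16e-09) and 0.56 ± 0.09 in intact cells (adjusted p = 1.74e-05), and their difference was 0.42 ± 0.13 (adjusted p = 0.0117, all edgeR).

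ARRDC1, which directs budding of vesicles from the plasma membrane, was higher with AA in deficient cells. It had 21.1, 22.4 and 21.9 FPKM there, against 18.5, 15.1 and 15.6 FPKM with PBS. In intact cells it had 15.8, 13.8 and 14.9 FPKM with AA, against 16.5, 15.998 and 15.5 FPKM with PBS, groups that overlapped. The log2 change was 0.40 ± 0.07 in deficient cells (adjusted p = 2.42e-05) and -0.03 ± 0.07 in intact cells (adjusted p = 0.716), with a difference of 0.43 ± 0.10 (adjusted p = 0.00136, all edgeR). ARRDC1 is the shortest of the 8 genes, at 1437 bases as implied by its counts and FPKM. When the trend of log2 change on gene length was removed, its value was 0.11 in deficient cells (adjusted p = 0.146) and -0.23 in intact cells (adjusted p = 0.0093), while the difference stayed at 0.35 (adjusted p = 0.00725, all edgeR).

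ARRDC2, another PPxY adaptor, was lower with AA. It had 13.4, 12.1 and 11.95 FPKM in deficient cells with AA, against 13.9, 14.5 and 13.5 FPKM with PBS, and 11.1, 9.90 and 11.2 FPKM in intact cells with AA, against 12.98, 13.4 and 13.8 FPKM with PBS. The groups were separate in both kinds of cell, narrowly in deficient cells. The log2 change was -0.21 ± 0.07 in deficient cells (adjusted p = 0.0087) and -0.32 ± 0.07 in intact cells (adjusted p = 0.000315, edgeR). Without deficient AA replicate 3 the value in deficient cells was -0.16 (adjusted p = 0.0544, edgeR). The difference between the effects was 0.11, with a 95% interval of -0.09 to 0.32 (adjusted p = 0.375, edgeR).

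The share of TXNIP in the summed FPKM of the 5 α-arrestins was 55.6 ± 1.31% in deficient cells with AA and 32.2 ± 2.80% with PBS (SD, n = 3 each). It was 36.8 ± 2.16% in intact cells with AA and 30.2 ± 1.05% with PBS. Per length, TXNIP stood at 61.1 ± 3.51 FPKM against 21.8 ± 0.66 FPKM for ARRDC1 in deficient cells with AA, and at 18.5 ± 2.36 FPKM against 16.4 ± 1.82 FPKM in deficient cells with PBS (SD, n = 3).

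MLXIP, which encodes MondoA, fell under AA in both kinds of cell. It had 4.99, 4.52 and 5.21 FPKM in deficient cells with AA, against 8.73, 10.9 and 9.78 FPKM with PBS. In intact cells it had 4.97, 5.40 and 4.56 FPKM with AA, against 11.8, 9.83 and 10.5 FPKM with PBS. No AA library reached the lowest PBS library. The log2 change was -1.15 ± 0.06 in deficient cells (adjusted p = 8.68e-14) and -1.08 ± 0.06 in intact cells (adjusted p = 3.29e-13), and their difference of -0.07 had a 95% interval of -0.24 to 0.10 (adjusted p = 0.515, all edgeR).

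MLXIP is the longest of the 8 genes, with an implied 7091 bases, and without the length trend its log2 changes were -0.70 in deficient cells (adjusted p = 5.06e-10) and -0.73 in intact cells (adjusted p = 3.18e-10, edgeR). Under AA it was lower in deficient than in intact cells by a log2 difference of -0.20 ± 0.06 (adjusted p = 0.00726, edgeR). That difference was -0.07 without the length trend (adjusted p = 0.346, edgeR) and -0.02 on log2(FPKM + 1) (adjusted p = 0.897, limma).

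MLX, the shared dimer partner, did not pass the test in any of the 5 comparisons, but between genotypes under AA it passed in some alternatives. It had 33.4, 35.2 and 32.1 FPKM in deficient cells with AA, against 29.6, 33.2 and 32.1 FPKM with PBS, and 30.8, 28.2 and 29.1 FPKM in intact cells with AA, against 31.2, 31.2 and 31.6 FPKM with PBS. The log2 change under AA was 0.00 in deficient cells, with a 95% interval of -0.10 to 0.09, and -0.06 in intact cells, with an interval of -0.16 to 0.03. Under AA the genotypes differed by 0.10 in CPM (adjusted p = 0.0718, edgeR), and by 0.16 without composition factors (adjusted p = 0.00588, edgeR). On log2(FPKM + 1) the difference was 0.19 (adjusted p = 0.00806, limma). It was 0.13 without intact AA replicate 1 (adjusted p = 0.0439, edgeR). Without deficient PBS replicate 1 or 2 it was 0.10 or 0.11 (adjusted p = 0.0486 and 0.0437, edgeR). MLX shares 770 exon bases with PSMC3IP on the opposite strand. The strand setting of the counting is not given, so reads of the overlapping genes cannot be told apart. The same limit applies to ARRDC2 and AC020904.3 (442 bases), ARRDC3 and ARRDC3-AS1 (145 bases), and ARRDC1 and ARRDC1-AS1 (29 bases). ARRDC1 also shares 183 exon bases with AL590627.2 on its own strand. STK11 shares 149 exon bases with CBARP on the opposite strand, under the same limit.

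MLXIPL, which encodes ChREBP, a factor best known from liver and fat, was at low counts. It had 55, 35 and 21 estimated counts in deficient cells with AA, against 13, 7 and 8 with PBS, and 15, 19 and 13 in intact cells with AA, against 9, 18 and 6 with PBS. In counts and CPM every deficient AA library lay above the other 9, and the remaining 3 groups overlapped, whereas in FPKM deficient cells with AA (0.35 to 1.21) overlapped deficient cells with PBS (0.136 to 0.567) and intact cells with AA (0.207 to 0.674). The log2 change in deficient cells was 1.72 ± 0.42 (adjusted p = 0.000941), that in intact cells 0.42 ± 0.45 (adjusted p = 0.417), and their difference 1.296 ± 0.63 (adjusted p = 0.101, all edgeR). The difference was 1.57 without deficient AA replicate 3 (adjusted p = 0.0471, edgeR). The rise in deficient cells was 0.45 on unfiltered log2(FPKM + 1), a scale that understates changes of low genes (adjusted p = 0.0747, limma). Under AA, deficient cells exceeded intact cells by 1.16 ± 0.39 (adjusted p = 0.0138), which was 1.01 without intact AA replicate 3 (adjusted p = 0.0599) and 0.83 without deficient AA replicate 1 (adjusted p = 0.12, all edgeR). On unfiltered log2(FPKM + 1) that difference was 0.39 (adjusted p = 0.151, limma).

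**Figure D3:**
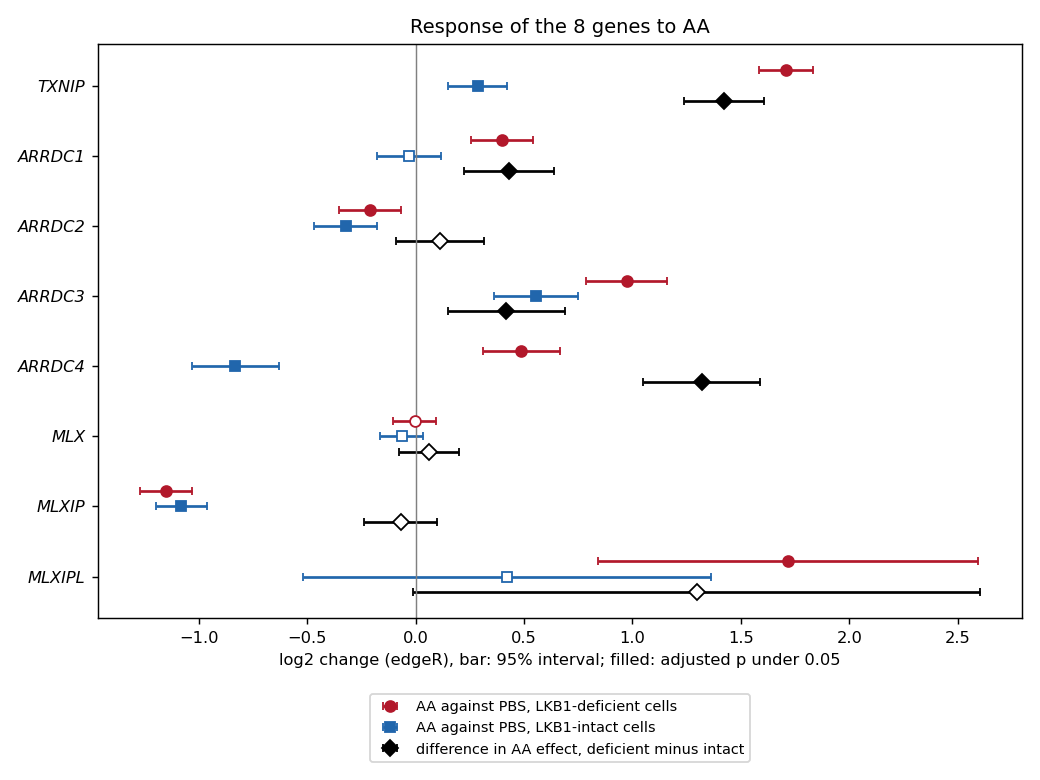
Log2 change of each gene under AA in deficient cells (circles) and intact cells (squares), and the difference between them (diamonds), with 95% intervals from edgeR. Filled symbols passed an adjusted p of 0.05. TXNIP and ARRDC4 have the largest differences that passed.

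Counted together, 7 of the 8 genes passed the test under AA in deficient cells, where 74.4% of all genes tested did so. Of these, 5 were higher (37% of all genes) and 2 lower (37.4% of all genes). In intact cells 5 passed, against 69.8% of all genes. TXNIP and ARRDC3 were higher there (34.5% of all genes), and ARRDC2, ARRDC4 and MLXIP were lower (35.2% of all genes). The libraries of AA and PBS did not overlap for 7 of 8 genes in deficient cells, against 75.5% of all genes, and for 5 of 8 in intact cells, against 72.8%. These shares are near the background and are not results about the 8 genes as a group.

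The difference between the AA effects passed for 4 of 8 genes, against 44.6% of all genes. These were TXNIP, ARRDC1, ARRDC3 and ARRDC4, all positive (21.6% of all genes), and none was negative (23% of all genes). Of all calls in that comparison 48.4% were positive, and 60.3% on log2(FPKM + 1). The median difference was 0.42 over the 8 genes and -0.01 over all genes.

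Between genotypes under AA, 6 of 8 genes passed, against 59% of all genes. TXNIP, ARRDC1, ARRDC3, ARRDC4 and MLXIPL were higher in deficient cells (28.7% of all genes), and MLXIP was lower (30.3% of all genes). The groups were apart for 7 of 8 genes, against 63.2% of all genes. Here 48.7% of all calls were positive, and 60.3% on log2(FPKM + 1). Under PBS none of the 8 genes passed in edgeR or DESeq2, against 0.275% of all genes in edgeR (0.055% higher and 0.22% lower in deficient cells). None had groups that did not overlap there, against 13.4% of all genes. Before adjustment 2 of the 8, TXNIP and MLXIP, were under 0.05 in edgeR.

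Genes were ranked by how little their centred log2 CPM over the 12 libraries differed from that of TXNIP, ARRDC3 or ARRDC4, among 9683 genes. The nearest to TXNIP were PSAT1, with a root mean square difference of 0.13, CARS1 (0.14), TUBE1 (0.14) and NR1D1 (0.14). The nearest to ARRDC3 were SLC50A1 (0.09), NEK2 (0.09), CYP26B1 (0.10) and NDUFS4 (0.10). The nearest to ARRDC4 were MARCOL (0.12), SLC7A11 (0.13), CYP1B1 (0.13) and UHRF1BP1 (0.14). SLC7A11, the cystine transporter, averaged 297 CPM in deficient cells with AA and 247 CPM with PBS, and 113 CPM in intact cells with AA and 225 CPM with PBS.

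Lists of related genes were set beside the 8 genes, with AA compared with PBS in each kind of cell. The median log2 change of all genes tested was 0.01 in deficient cells and 0.01 in intact cells. For comparison with every list below, 37% of all genes tested were higher and 37.4% lower in deficient cells. In intact cells 34.5% were higher and 35.2% lower. Without the length trend 8861 of all genes were called in deficient cells, 4388 of them higher, and 8125 in intact cells, 4062 of them higher. Of the thioredoxin system that TXNIP inhibits, 4 of 5 listed genes were tested, with 3 higher and 1 lower in deficient cells (median 0.31) and 2 higher and 2 lower in intact cells (median 0.10). Without the length trend 1 was higher and 2 lower in deficient cells (median -0.08), and 1 was higher and 2 lower in intact cells (median -0.22). TXNRD1, the cytosolic thioredoxin reductase, was lower by a log2 change of -0.62 in deficient cells (adjusted p = 3.51e-15) and -0.82 in intact cells (adjusted p = 5.97e-17, edgeR). TXN, thioredoxin itself, changed by 0.21 in deficient cells (adjusted p = 0.000566) and 0.38 in intact cells (adjusted p = 5.22e-07), but without the length trend by -0.26 in deficient cells (adjusted p = 5.96e-05) and -0.03 in intact cells (adjusted p = 0.558, all edgeR). TXN2, mitochondrial thioredoxin, was higher by 0.41 in deficient cells (adjusted p = 1.07e-06) and 0.37 in intact cells (adjusted p = 4.64e-06), with a value in deficient cells of 0.09 without the length trend (adjusted p = 0.151, all edgeR). TXNRD2, the mitochondrial reductase, was higher in deficient cells (0.73, adjusted p = 8.97e-12). In intact cells it was lower (-0.17, adjusted p = 0.00469), a call not made with upper quartile scaling (-0.11, adjusted p = 0.0606, all edgeR).

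Among 11 NEDD4-family ligases and adaptors, 2 were higher and 5 lower in deficient cells (median log2 change 0.00), and 3 were higher and 4 lower in intact cells (median 0.01). Without the length trend 6 were higher and 2 lower in deficient cells (median 0.296), and 6 higher and 3 lower in intact cells (median 0.101). ITCH, a ligase known to target TXNIP, had a log2 change of -0.31 in deficient cells (adjusted p = 4.3e-07) and -0.42 in intact cells (adjusted p = 7.48e-09), and of -0.08 in deficient cells without the length trend (adjusted p = 0.0728, all edgeR). WWP1, a ligase that binds PPxY motifs, was lower in deficient cells (-0.53, adjusted p = 1.87e-07) and higher in intact cells (0.18, adjusted p = 0.0131, edgeR).

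Of 9 other arrestin-fold genes 6 were tested, with 4 higher and 2 lower in deficient cells (median log2 change 0.16), and 3 higher and none lower in intact cells (median 0.08). Without the length trend 4 were higher and 1 lower in deficient cells (median 0.27), and 5 higher and none lower in intact cells (median 0.18). ARRB2, the β-arrestin 2 gene, was higher by 0.99 in deficient cells (adjusted p = 6.68e-13) and 0.67 in intact cells (adjusted p = 8.52e-10, edgeR). ARRB1, the β-arrestin 1 gene, was lower in deficient cells (-0.37, adjusted p = 1.75e-05) and higher in intact cells (0.33, adjusted p = 2.82e-05, edgeR), while on log2(FPKM + 1) its value in deficient cells was -0.07 (adjusted p = 0.357, limma).

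Of 18 glucose transporters and hexokinases 10 were tested, with 6 higher and 2 lower in deficient cells (median log2 change 0.30), and 6 higher and 1 lower in intact cells (median 0.38, and 0.24 on log2(FPKM + 1)). SLC2A1, which encodes the transporter GLUT1 that TXNIP helps to internalise, was higher by 0.91 in deficient cells (adjusted p = 6.87e-14) and 0.61 in intact cells (adjusted p = 1.06e-10, edgeR). SLC2A3 changed by 2.92 in deficient cells and 3.74 in intact cells, but it resembles SLC2A14 in sequence and reads may be shared, so its value is uncertain. HK1, a hexokinase, was lower in deficient cells (-0.41, adjusted p = 3.07e-10) and higher in intact cells (0.09, adjusted p = 0.0244, edgeR).

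Of 10 genes of the MAX and MLX dimer network 9 were tested, with 2 higher and 5 lower in deficient cells (median log2 change -0.27), and 3 higher and 5 lower in intact cells (median -0.34). Without the length trend 3 were higher and 5 lower in deficient cells (median -0.46), and 2 higher and 4 lower in intact cells (median -0.07). MGA, a partner of MAX, changed by -1.53 in deficient cells (adjusted p = 1.61e-16) and -1.35 in intact cells (adjusted p = 2.52e-15, edgeR). MNT, a repressor that pairs with MAX or MLX, changed by -1.004 in deficient cells (adjusted p = 1.55e-10) and -0.80 in intact cells (adjusted p = 8.08e-09, edgeR). The sizes for MGA and MNT without the length trend are not given here. MYC was lower by -0.59 in deficient cells (adjusted p = 1.51e-08) and -0.94 in intact cells (adjusted p = 1.88e-11, edgeR).

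Of 20 other carbohydrate-response genes 16 were tested, with 4 higher and 7 lower in deficient cells (median log2 change 0.00), and 7 higher and 5 lower in intact cells (median 0.16). Without the length trend 7 were higher and 5 lower in deficient cells (median 0.195), and 11 higher and 3 lower in intact cells (median 0.28). The difference between the AA effects passed for 2 of the 16 genes in the positive direction, against 21.6% of all genes, and for 7 in the negative direction, against 23%. The list's median difference was -0.22, against -0.01 for all genes, and on log2(FPKM + 1) it was -0.09, with 2 positive and 5 negative calls (limma). Without the length trend it was -0.185, with 2 positive and 6 negative calls. The median difference was 0.12 for the thioredoxin system, 0.10 for NEDD4-family genes and 0.19 for other arrestin-fold genes. It was -0.12 for glucose transporters and hexokinases and 0.11 for the MAX and MLX dimer network. FASN, the fatty acid synthase, was lower in deficient cells (-0.94, adjusted p = 7.72e-15) and higher in intact cells (0.20, adjusted p = 0.00013, edgeR). HBP1, a transcriptional repressor, was higher by 1.39 in deficient cells (adjusted p = 1.32e-13) and 1.35 in intact cells (adjusted p = 3.84e-13, edgeR).

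**Figure D4:**
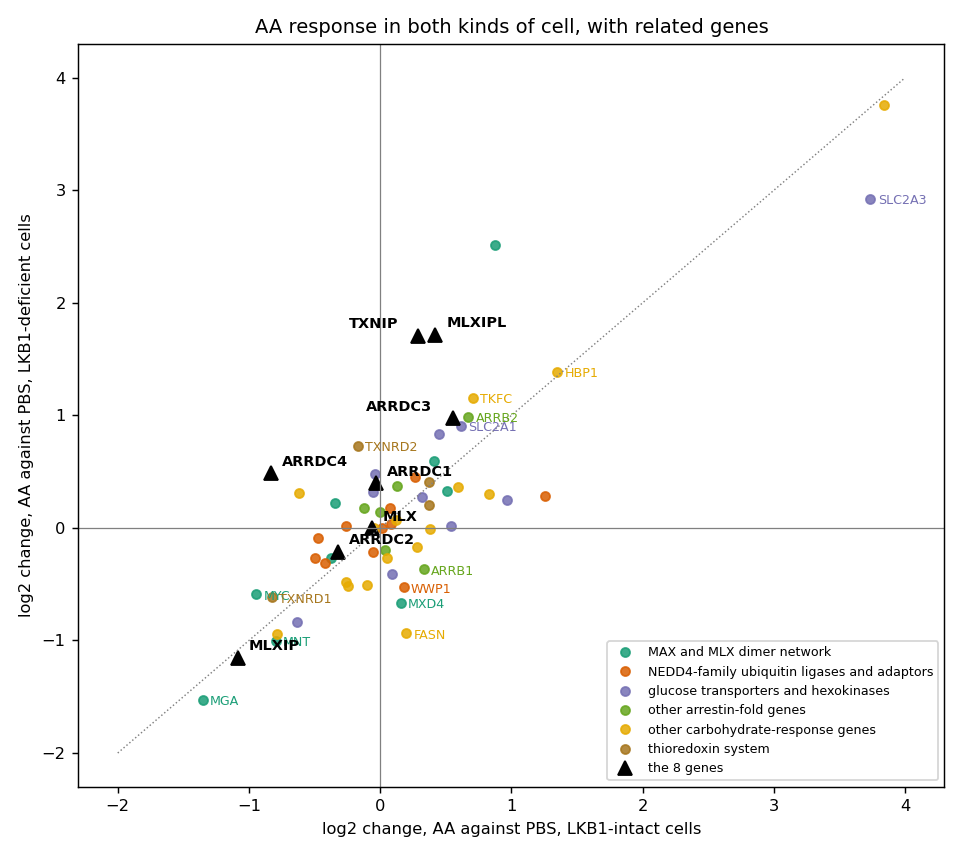
Log2 change under AA in deficient cells against that in intact cells for the 8 genes (triangles) and the genes of the lists above (circles). ARRDC4 sits in the quadrant of genes higher in deficient and lower in intact cells, and TXNIP lies above the line of equal change.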

How the data were processed

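The authors deposited gene tables of 2 kinds for all libraries: estimated counts, and FPKM values scaled by transcript length and depth. The submitters' processing notes name RSEM, StringTie 1.3.1, HISAT2 2.1.0, Bowtie2 2.2.8 and fastp 0.18.0, without their roles. Genome build, RSEM version and strand setting: not given in the sources used here. An estimator of the RSEM type splits reads among similar transcripts.

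Counts were rounded, and genes were kept by edgeR's group filter at a minimum count of 10 (12718 of 20323 genes). After TMM scaling, edgeR 4.0.16 (R 4.3.3) fitted all 12 libraries with a quasi-likelihood model. Its 5 comparisons were AA against PBS in deficient and in intact cells, how far these AA effects differed, and deficient against intact cells with AA or with PBS. Benjamini-Hochberg adjustment covered all genes tested, and 0.05 was the threshold. The steps were run on simulated counts, with changes planted in a small part of the genes and only in deficient cells with AA. Far more genes were called in the data, so that run cannot check the scaling under such wide change.

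Alternatives were other scalings and filters, DESeq2 1.42.0, limma 3.58.1 (voom, or log2 FPKM), a replicate block, fits to the libraries of 1 comparison, leaving out each library, and removing the trend of log2 change on gene length, taken from counts over FPKM. For the related gene lists, other scalings and the length trend were added after the data were seen. Replicates differed beyond sampling noise (chi-square per degree of freedom 2.01 to 4.37), so all were counted.

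Upstream sequences are from RefSeq and gene positions from GENCODE release 29, neither matched to the authors' build. The 8 genes and the lists were chosen with earlier results of these data known. The genes named were the 8, STK11, up to 4 of smallest p per list, of which some are left out, and the 4 most like TXNIP, ARRDC3 or ARRDC4. The labels name no batch.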

Additional observations from a re-analysis of the deposited data

Results flagged for a closer look

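For 4 of the 8 genes the AA effect differed between LKB1-deficient and LKB1-intact cells by a test of the difference itself (edgeR). The difference in log2 change, deficient minus intact, was 1.42 for TXNIP (3.42e-11 adjusted p), 1.32 for ARRDC4 (3.69e-08 adjusted p), 0.43 for ARRDC1 (0.00136 adjusted p) and 0.42 for ARRDC3 (0.0117 adjusted p). Each was positive in all 25 alternatives in which it was computed, from 1.35 to 1.498 for TXNIP, 1.101 to 1.44 for ARRDC4, 0.35 to 0.53 for ARRDC1 and 0.30 to 0.51 for ARRDC3. In the same comparison 44.6% of all genes tested were called.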

How the results depend on the processing

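Of 1145 alternative values for single genes, 1093 kept sign and side of the threshold, 15 passed the threshold only under the alternative and 12 lost it. The other 25 changed sign and were called neither before nor under the alternative, 11 of them for MLX under AA in deficient cells. The number of genes called between genotypes under PBS was 35. It was 111 with no low-count filter, 54 with DESeq2, 5 with limma on log2(FPKM + 1) or log2(FPKM + 0.1), 4 on unfiltered log2(FPKM + 1), 5 at an adjusted p of 0.01 and 6 to 43 when 1 library was left out. It was 9, 6 and 15 without intact PBS replicates 1, 2 and 3, and 6 and 14 without deficient PBS replicates 1 and 3. The cause was not tested. The other 4 counts of called genes stayed within 1.5 times.

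When 1 library was left out, the number of the 8 genes called was 6 to 7 in deficient cells, 5 in intact cells, 4 to 5 for the difference, 0 between genotypes under PBS and 5 to 7 under AA. Replicate numbers did not pair the libraries: 0 of 12 same-number pairs correlated above 0.1, and 1 of 12 libraries correlated best with its own number. With a replicate block, 7, 5, 4, 0 and 6 of the 8 genes were called, and 9402, 8776, 5554, 32 and 7402 of all genes.

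With few counts, MLXIPL was limited by depth. Length-dependent changes bear on ARRDC1 and MLXIP, as given beside their values, and on the sizes for ARRDC3 and ARRDC4. Without the length trend the log2 change of ARRDC3 was 1.21 in deficient cells and 0.74 in intact cells. That of ARRDC4 was 0.71 in deficient cells and -0.66 in intact cells, and these calls were unchanged.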

Other observations

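Of the 16 genes with the tandem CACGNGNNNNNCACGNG upstream, TXNIP among them, 13 were tested. With AA, 7 were higher and 2 lower in deficient cells, where 37% of all genes tested were higher and 37.4% lower. In intact cells 7 were higher and 3 lower, where 34.5% of all genes were higher and 35.2% lower (edgeR). Nothing is read from these counts. The genes named next were picked after their values were seen. GFPT1, the entry enzyme of the hexosamine pathway, holds the tandem and changed by a log2 of 0.21 in deficient cells (4.54e-06 adjusted p) and -0.56 in intact cells (2.44e-12 adjusted p). These are opposite signs as for ARRDC4, whose window does not hold the tandem. P4HA1, a collagen prolyl hydroxylase subunit that also holds the tandem, changed by 0.64 in deficient cells (4.03e-12 adjusted p) and 0.64 in intact cells (7.09e-12 adjusted p). The 2 tandem genes lower in deficient cells were STX12 (-0.45, 2.76e-05 adjusted p) and TIGD1 (-0.48, 0.0239 adjusted p, edgeR). KLF10, a transcription factor of the carbohydrate-response list, changed by 0.31 in deficient cells (5.71e-06 adjusted p) and -0.62 in intact cells (7.85e-10 adjusted p).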
